A study of Mus musculus with 9 samples.

Results

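The genes described here are 10 feedback and transcription targets of WNT/β-catenin signalling, namely Axin2, Nkd1, Notum, Znrf3, Rnf43, Lgr4, Lef1, Tcf7, Tcf7l2 and Sp5. They were chosen by name from what is known of the pathway, and each was found by its symbol in a table of counts for 53801 genes. All 10 passed the filter on low counts, as did 22452 genes of the whole table. RNA was sequenced from cultured mouse spermatogonial stem cells (SSCs) of Prmt5 flox/flox; Rosa26-CreERT2 mice, in 9 libraries of 3 groups with 3 libraries each. PRMT5 is an enzyme that methylates arginine in proteins, and 4-hydroxytamoxifen (4OHT, 1 µM) switches on the Cre recombinase that deletes its gene. By the study's account every group received 4OHT, so the deletion is shared by all of them. For the 4OHT group no construct is named, and the sources used here do not say whether its cells received an empty vector. The MU and OE groups carried a lentiviral PRMT5 construct, and these labels, which do not spell the constructs out, were read as the catalytically dead mutant PRMT5 (E444Q) for MU and as PRMT5 (WT) for OE. Ethanol-treated cells with intact Prmt5 were not analysed here, so no value below compares deleted with undeleted cells. The sources used here do not say whether the libraries of a group came from separate cultures, so p-values may measure technical spread only. Some other assays of the study grew SSCs on feeder cells, and the sources used here do not say whether feeders were present in the cultures sequenced.

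In the WNT pathway, a secreted WNT protein binds a Frizzled receptor and an LRP5 or LRP6 co-receptor at the cell surface. This stops a cytoplasmic complex of AXIN, APC, CK1 and GSK3 from marking β-catenin for destruction, and β-catenin then enters the nucleus and binds transcription factors of the TCF/LEF family. Many of the genes switched on in this way feed back on the pathway, and Axin2 is the target most often used to read its activity across tissues. In the testis, spermatogonia respond to WNT, and β-catenin signalling has been linked to the spread and differentiation of undifferentiated spermatogonia.

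Among the 10 genes, the regulatory sequences of a gene that fell, Sp5, and of the reference target that rose, Axin2, are shown first, since these genes changed in opposite directions. Each sequence is the 250 bases before a RefSeq transcription start on GRCm38.p6, with the last base next to the start, and capitals mark a match to the TCF/LEF-type motif CTTTGAT or CTTTGAA on either strand. The Sp5 sequence lies at chr2:70474673-70474922 on the + strand and the Axin2 sequence at chr11:108920099-108920348 on the + strand.
Sp5: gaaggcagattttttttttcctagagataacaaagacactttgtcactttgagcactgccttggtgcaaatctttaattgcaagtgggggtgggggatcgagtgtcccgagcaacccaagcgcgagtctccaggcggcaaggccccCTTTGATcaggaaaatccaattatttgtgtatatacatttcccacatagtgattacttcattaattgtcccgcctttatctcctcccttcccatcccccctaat
Axin2: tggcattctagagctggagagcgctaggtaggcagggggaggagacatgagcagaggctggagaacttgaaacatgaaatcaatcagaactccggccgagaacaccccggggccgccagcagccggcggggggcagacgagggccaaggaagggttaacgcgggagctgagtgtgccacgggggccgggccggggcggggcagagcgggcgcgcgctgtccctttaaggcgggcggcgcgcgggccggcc
The Sp5 sequence held 1 match, CTTTGAT, which starts 104 bases upstream of the transcription start, and the Axin2 sequence held 0. RefSeq sequences were at hand for 8 of the 10 genes (14 start sites), and Sp5 was the 1 gene with a match, at 1 of the 14 start sites. Of all 27025 genes with such sequences, 8.63% held a match to either motif at some start site. Of all 32851 start sites in the same table, 7.48% held a match to either motif, 3.21% to CTTTGAT and 4.46% to CTTTGAA. The Axin2 window was 69.2% G or C with 24 CpG dinucleotides, compared with 46.0% and 6 in the Sp5 window. A match of letters does not show binding, and a window without a match says nothing of sites elsewhere.

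Total counts were 78751996 to 95370711 per library with 4OHT, 192033300 to 365719548 with MU and 79941857 to 154557863 with OE. The value 4 was 1.35 to 1.84 times as frequent as its neighbours, so about 4 counts were taken to stand for a read pair. This reading was not tested. If it holds, replicates of a group differed by 2.53 to 8.90 times what counting alone gives, more than a single library deposited again would. The 3 highest values among replicate pairs were those of the 4OHT group. Levels are given as CPM (counts scaled by library size) after TMM scaling, as the mean ± SD of 3 libraries, and 3 read pairs (12 counts) correspond to between 0.0317 and 0.158 CPM. Prmt5 itself was at 31.95, 30.8 and 28.2 CPM in the 4OHT libraries, 145.2, 147.1 and 146.1 CPM in the MU libraries and 1072, 1071 and 1085 CPM in the OE libraries. The groups did not overlap, and Prmt5 was 7.36-fold higher with OE than with MU, so the mutation and the level of the construct cannot be told apart. The counts do not separate the construct from the cells' own transcript. Sums of marker genes also differed between the groups. Those of 16 germ cell genes were 2669 to 2758 CPM with 4OHT, 3480 to 3579 CPM with MU and 3740 to 3787 CPM with OE, and Ddx4 and Dazl, which define germ cells, were well above 0 in all libraries. For 14 fibroblast genes the sums were 5477 to 6357, 3641 to 3682 and 2793 to 2848 CPM, respectively, and for 10 macrophage genes 170.2 to 186.5, 1138 to 1171 and 2213 to 2337 CPM. Markers of Sertoli and Leydig cells summed to at most 19.7 CPM and those of endothelial cells to at most 17.8 CPM, and of the former Hsd3b1 had 0 counts in every library.

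Compared with 4OHT, 7 of the 10 WNT target genes rose and 1 fell with MU, and the same genes rose and fell with OE (edgeR's quasi-likelihood test, Benjamini-Hochberg adjusted p under 0.05 over all genes tested). The risers were Lef1, Notum, Axin2, Nkd1, Lgr4, Tcf7 and Znrf3, and the gene that fell was Sp5. Of all genes tested, 29.5% rose and 26.5% fell with MU, and 29.9% rose and 27.9% fell with OE. In 8 of the 10 genes the 4OHT libraries did not overlap the MU libraries, and in 8 they did not overlap the OE libraries, where 63.9% and 61.6% of all genes tested did not overlap. The median log2 fold change of the 10 genes was 0.455 with MU and 0.438 with OE, compared with 0.043 and 0.018 over all genes. Both comparisons share the 4OHT libraries, so they are not independent of each other. In RNA of whole cultures, fewer cells of a type and less RNA per cell cannot be told apart.

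**Figure D1:**
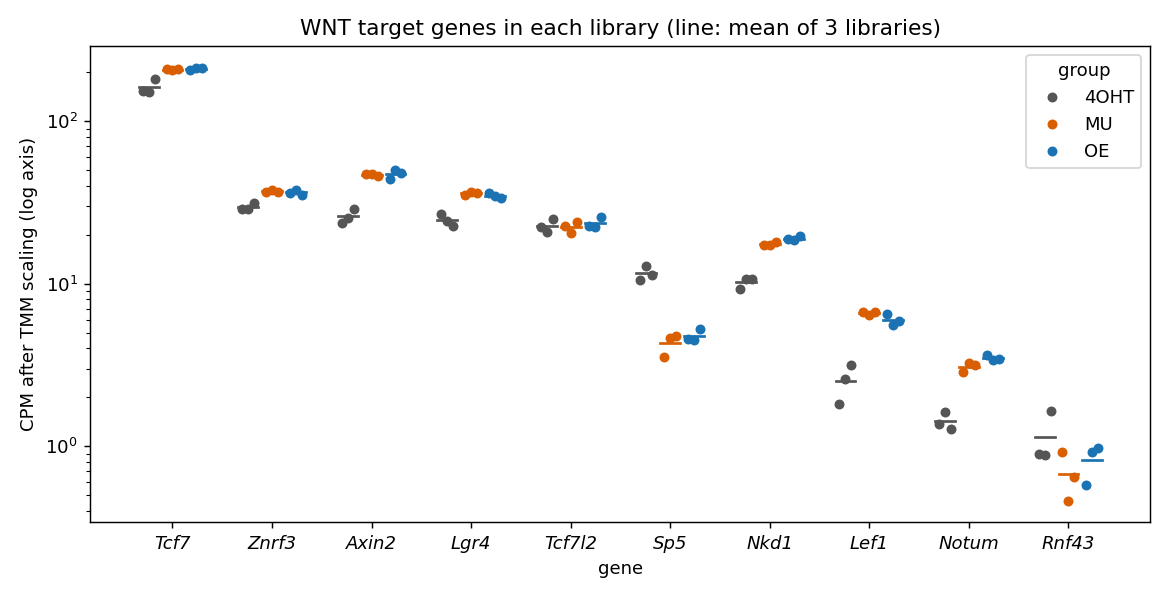
CPM after TMM scaling (log axis) of the 10 WNT target genes in each of 9 libraries, with points for libraries, colours for the 4OHT, MU and OE groups and lines for the mean of 3 libraries. The MU and OE points lie above the 4OHT points in 7 genes and below them in Sp5, and the groups overlap in Tcf7l2 and Rnf43.

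Among the feedback genes that act inside the cell, Axin2 (ENSMUSG00000000142, GRCm38 chr11:108920349-108950783) encodes a scaffold of the complex that destroys β-catenin. It was at 23.6, 25.5 and 28.9 CPM in the 4OHT libraries, 47.6, 47.0 and 46.2 CPM in the MU libraries and 44.3, 50.3 and 48.3 CPM in the OE libraries. All 6 libraries with a construct were above all 3 with 4OHT, whereas MU and OE overlapped. Axin2 rose 1.81-fold with MU (log2 fold change 0.85, standard error 0.075, adjusted p = 2.94e-07 from edgeR) and 1.83-fold with OE (0.87, standard error 0.075, adjusted p = 2.15e-07 from edgeR). Nkd1 (ENSMUSG00000031661, chr8:88521354-88594884), whose product binds Dishevelled and dampens the signal, was at 9.24, 10.6 and 10.7 CPM with 4OHT, 17.3, 17.4 and 18.1 CPM with MU and 18.8, 18.6 and 19.6 CPM with OE. It rose 1.72-fold with MU (adjusted p = 1.13e-06 from edgeR) and 1.86-fold with OE (adjusted p = 2.94e-07 from edgeR), and each group lay apart from the other two. The number of Nkd1 counts per Axin2 count was 0.394 ± 0.0234 with 4OHT, 0.375 ± 0.0157 with MU and 0.399 ± 0.0281 with OE (SD, n = 3), and this ratio overlapped between all groups. Other ratios to Axin2 moved. Means with 4OHT, MU and OE were 6.26, 4.43 and 4.43 for Tcf7, 1.14, 0.790 and 0.767 for Znrf3, and 0.0960, 0.141 and 0.126 for Lef1. For these genes 4OHT overlapped neither construct. Lgr4 per Axin2 count (0.958, 0.769 and 0.733) overlapped with both, and Notum (0.0553, 0.0658 and 0.0736) with MU only.

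Outside the cell, Notum (ENSMUSG00000042988, chr11:120653788-120661175) encodes a secreted enzyme that removes the lipid WNT proteins need for receptor binding. Its level was low, at 1.37, 1.63 and 1.27 CPM in the 4OHT libraries, 2.86, 3.24 and 3.16 CPM in the MU libraries and 3.62, 3.41 and 3.45 CPM in the OE libraries. Notum rose 2.17-fold with MU (log2 fold change 1.12, standard error 0.153, adjusted p = 2.50e-05 from edgeR) and 2.45-fold with OE (1.30, standard error 0.155, adjusted p = 6.26e-06 from edgeR). The 4OHT libraries held 104, 136 and 114 counts of it, or about 26 to 34 read pairs if 4 counts stand for a pair. Notum shares 708 exon bases with Notumos on the opposite strand, which was at 0.191 to 0.453 CPM, and the sources used here do not say whether strand was kept, so their counts cannot be told apart there.

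At the receptor, Znrf3 and Rnf43 encode membrane ubiquitin ligases that clear Frizzled from the surface, and Lgr4 encodes a receptor for R-spondins, which hold these ligases back. Znrf3 (ENSMUSG00000041961, chr11:5276324-5444847) was at 28.8, 28.7 and 31.2 CPM with 4OHT, 36.6, 37.9 and 36.6 CPM with MU and 36.4, 37.8 and 35.2 CPM with OE. Its rise was small, 1.25-fold with MU (adjusted p = 0.000271 from edgeR) and 1.23-fold with OE (adjusted p = 0.000514 from edgeR), but no construct library reached down to the 4OHT range. Rnf43 (ENSMUSG00000034177, chr11:87662722-87735539) was near 1 CPM throughout, at 0.896, 0.884 and 1.64 CPM with 4OHT, 0.921, 0.462 and 0.644 CPM with MU and 0.578, 0.919 and 0.970 CPM with OE. Its groups overlapped, and it passed the threshold in neither comparison (log2 fold change -0.76, 95% interval -1.51 to -0.02, unadjusted p = 0.0448 and adjusted p = 0.0759 for MU, and -0.47, adjusted p = 0.275 for OE, from edgeR). The third 4OHT library was the high value of Rnf43, and without it the change was -0.41 with MU (adjusted p = 0.362 from edgeR) and -0.12 with OE (adjusted p = 0.816 from edgeR). Without the first MU library the change with MU was -1.04 (adjusted p = 0.0366 from edgeR), and without the second it was -0.56 (adjusted p = 0.244 from edgeR). Lgr4 (ENSMUSG00000050199, chr2:109917647-110014257) rose 1.47-fold with MU (adjusted p = 8.14e-06 from edgeR) and 1.42-fold with OE (adjusted p = 2.17e-05 from edgeR). Its values were 26.8, 24.3 and 22.7 CPM with 4OHT, 35.1, 36.9 and 36.3 CPM with MU and 36.2, 34.6 and 33.6 CPM with OE.

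The TCF/LEF factors, which carry β-catenin to DNA, differed among themselves. Tcf7 (ENSMUSG00000000782, chr11:52252371-52283014) had the highest level per kb of exon among the 10 genes, and was at 153.3, 152.3 and 182.0 CPM with 4OHT, 208.5, 206.5 and 209.2 CPM with MU and 205.6, 213.3 and 213.8 CPM with OE. It rose 1.28-fold with MU (adjusted p = 0.000230 from edgeR) and 1.30-fold with OE (adjusted p = 0.000138 from edgeR). Lef1 (ENSMUSG00000027985, chr3:131110471-131224356) rose more than any other of the 10 genes with MU, 2.61-fold (log2 fold change 1.39, standard error 0.166, adjusted p = 6.65e-06 from edgeR), and 2.36-fold with OE (1.24, standard error 0.167, adjusted p = 1.93e-05 from edgeR). Its libraries were at 1.82, 2.58 and 3.17 CPM with 4OHT, 6.73, 6.41 and 6.71 CPM with MU and 6.46, 5.58 and 5.92 CPM with OE, and the 4OHT libraries were spread more widely than the others. The exons of Lef1 share 1208 bases with the antisense gene Gm43352, which did not exceed 0.198 CPM in any library. Tcf7l2 (ENSMUSG00000024985, chr19:55741820-55933654) overlapped between all groups, at 22.4, 20.9 and 25.0 CPM with 4OHT, 22.6, 20.5 and 23.9 CPM with MU and 22.8, 22.3 and 25.6 CPM with OE. A change of Tcf7l2 was not detectable, with 95% intervals of the log2 fold change from -0.21 to 0.16 for MU and from -0.14 to 0.24 for OE (adjusted p = 0.822 and 0.646 from edgeR), and the sign for MU turned with upper-quartile scaling (0.052) and with library totals only (0.086).

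Sp5 (ENSMUSG00000075304, chr2:70474923-70477729), a zinc finger transcription factor and direct β-catenin target whose promoter sequence is given above, moved the other way. It was at 10.6, 12.9 and 11.3 CPM in the 4OHT libraries, 3.56, 4.62 and 4.78 CPM in the MU libraries and 4.57, 4.51 and 5.28 CPM in the OE libraries. Every 4OHT library was above every construct library. Sp5 was 2.68-fold lower with MU (log2 fold change -1.42, standard error 0.134, adjusted p = 6.01e-07 from edgeR) and 2.42-fold lower with OE (-1.27, standard error 0.135, adjusted p = 1.85e-06 from edgeR). No annotated gene overlaps Sp5, Znrf3 or Lgr4.

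**Figure D2:**
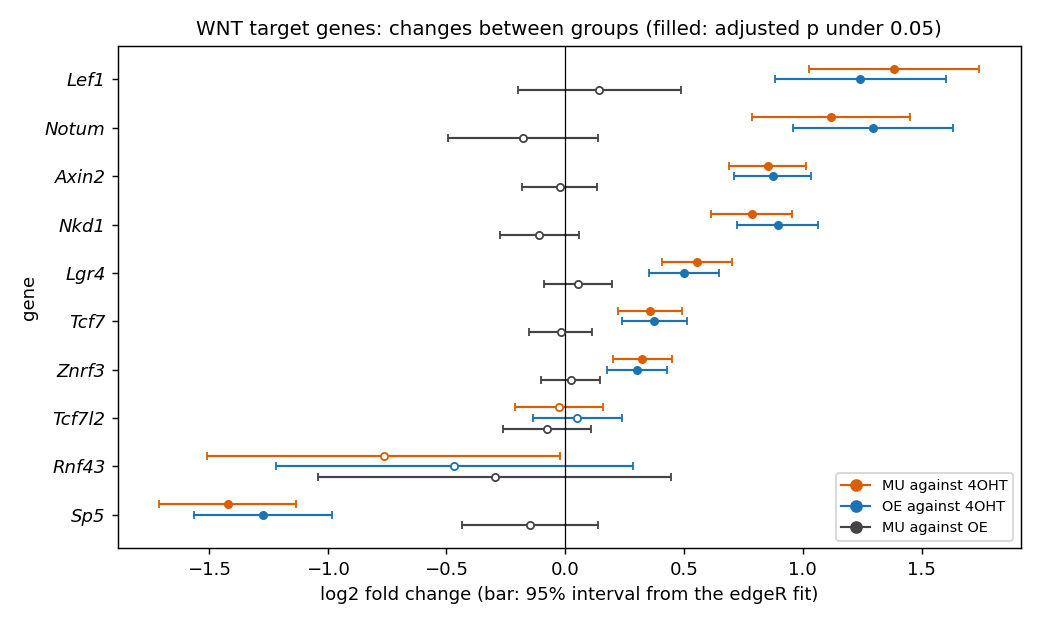
Log2 fold change of each WNT target gene for MU against 4OHT, OE against 4OHT and MU against OE, with bars for the 95% interval from the edgeR fit and filled points for an adjusted p under 0.05. From Lef1 (1.39 for MU against 4OHT) down to Sp5 (-1.42), the MU and OE points lie close together, and the intervals for MU against OE include 0 in all 10 genes.

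Between the constructs, a comparison that bears on the catalytic activity of PRMT5, 0 of the 10 genes passed the threshold with edgeR and 0 with DESeq2, and 0 had an unadjusted p under 0.05 with edgeR. Over all genes tested, 2.12% were higher and 1.06% lower with MU than with OE. The MU and OE libraries did not overlap in 2 of the 10 genes, where 25.9% of all genes tested did not overlap. These were Nkd1 (log2 fold change -0.11, 95% interval -0.28 to 0.06) and Notum (-0.18, 95% interval -0.49 to 0.14). For Axin2 the difference was -0.02 (95% interval -0.18 to 0.14), for Tcf7 -0.02 (-0.15 to 0.11), for Znrf3 0.02 (-0.10 to 0.15), for Lgr4 0.05 (-0.09 to 0.20) and for Tcf7l2 -0.08 (-0.26 to 0.11). The intervals were wider for Lef1 (0.14, from -0.20 to 0.49), Sp5 (-0.15, from -0.44 to 0.14) and Rnf43 (-0.30, from -1.04 to 0.44). These intervals bound the differences on the log2 scale and do not show that the constructs act alike.

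Levels of different genes were compared as CPM per kb of merged exon length. With 4OHT the order was Tcf7 (61.9), Sp5 (5.51), Axin2 (4.72), Lgr4 (4.18), Znrf3 (3.74), Tcf7l2 (2.59), Nkd1 (2.24), Notum (0.591), Lef1 (0.287) and Rnf43 (0.174). The libraries of Sp5 and Axin2, of Axin2 and Lgr4, of Lgr4 and Znrf3, and of Lef1 and Rnf43 overlapped, so the order within these pairs was within the spread between libraries. With MU, Axin2 (8.52) followed Tcf7 (79.3), and Sp5 (2.06) lay in seventh place, between Tcf7l2 (2.55) and Notum (1.28). The order with OE was the same as with MU, with Axin2 at 8.65 and Sp5 at 2.28, and in both groups no neighbours in the order overlapped.

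Ratios of counts within a library do not depend on how libraries are scaled, and those below were chosen after the values were seen. Axin2 counts per Sp5 count were 2.23, 1.97 and 2.57 in the 4OHT libraries, 13.4, 10.2 and 9.66 in the MU libraries and 9.71, 11.2 and 9.15 in the OE libraries. The ratio was higher in every library with a construct than in every 4OHT library. Ddx4, an RNA helicase found in germ cells, rose in the same comparisons (log2 fold change 0.89 with MU and 0.99 with OE). Per Ddx4 count, Axin2 was at 0.0878 ± 0.0141 with 4OHT, 0.0853 ± 0.00452 with MU and 0.0808 ± 0.00677 with OE (SD, n = 3), and the groups overlapped. Sp5 per Ddx4 count was 0.0390 ± 0.00512 with 4OHT, 0.00784 ± 0.00119 with MU and 0.00812 ± 0.000922 with OE, without overlap of 4OHT with either construct. Tcf7 per Ddx4 count was 0.549 ± 0.0854, 0.378 ± 0.0135 and 0.358 ± 0.0170, respectively, so relative to this germ cell gene Tcf7 was lower with the constructs although its CPM were higher. These ratios turn on the germ cell gene chosen, since 5 of the 16 germ cell markers fell with each construct and Id4 did not pass the threshold. Over all 16 markers as denominators, the ratio of Axin2 was higher without overlap for 9 with MU and 8 with OE, lower for 2 and 2, and overlapping for 5 and 6. Per count of Gfra1, a receptor gene of undifferentiated spermatogonia, Axin2 was at 0.216 with 4OHT, 1.70 with MU and 1.69 with OE. The ratio of Sp5 was lower without overlap for 14 of the 16 markers with each construct and higher for the other 2, Gfra1 and Etv5. The ratio of Tcf7 was higher for 6 and lower for 9 with MU, and higher for 6 and lower for 10 with OE. The part of the germ cell share in the rises of the WNT target genes was not tested.

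**Figure D3:**
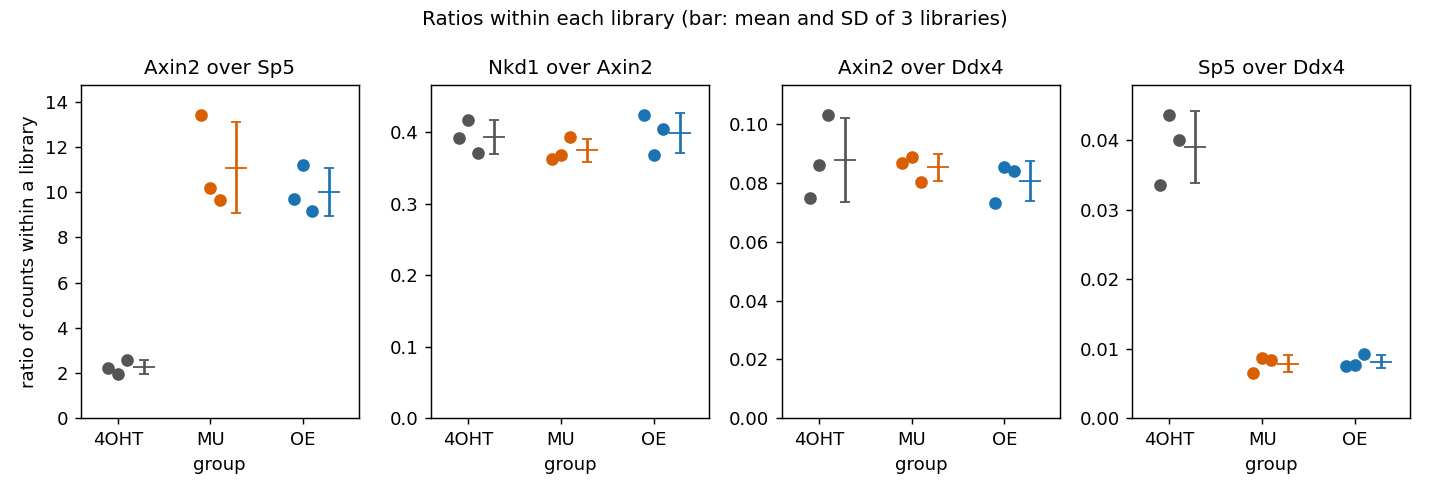
Ratio of the counts of 2 genes within each library (axes from 0), for Axin2 over Sp5, Nkd1 over Axin2, Axin2 over Ddx4 and Sp5 over Ddx4, with points for libraries of the 4OHT, MU and OE groups and bars for the mean and SD of 3 libraries. Axin2 over Sp5 is at most 2.57 with 4OHT and at least 9.15 with MU and OE, while Axin2 over Ddx4 overlaps between the groups, as it does for 5 (MU) and 6 (OE) of the 16 germ cell markers as denominators.

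The pattern of Axin2 across the 9 libraries was compared with that of 15417 other genes with a mean of at least 1 CPM, by the root mean square difference of log2(CPM + 1) after centring each gene on its mean. The 5 closest were Gpat2 (0.0381), which encodes an acyltransferase of the testis, Mylip (0.0425), Kazn (0.0449), Gnpda1 (0.0452) and Zscan18 (0.0458). Gpat2 was at 105.3 CPM with 4OHT, 185.1 with MU and 190.5 with OE. Of the WNT target genes, Nkd1 was the closest to Axin2 at 0.080, with 100 genes closer, followed by Notum (0.133, with 694 closer) and Lef1 (0.166, with 1329 closer). This order depends on the measure, since the added 1 CPM shrinks the changes of genes at a few CPM, such as Notum and Lef1. The fitted log2 fold changes with MU were 0.85 for Axin2, 1.12 for Notum, 1.39 for Lef1 and 0.55 for Lgr4. Sp5 was the farthest at 0.966, with 14280 of the 15417 genes closer.

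The rest of the pathway was read from lists by role, in comparison with 4OHT. Over all genes tested, 29.5% rose and 26.5% fell with MU, and 29.9% rose and 27.9% fell with OE. Counts of each list against 4OHT below, markers included, are to be read beside these shares. Of 20 genes tested for WNT ligands and their secretion, 3 rose and 7 fell with MU, and 3 rose and 9 fell with OE, with medians of -0.196 and -0.295 on the log2 scale. Wnt5a, a ligand that acts mostly apart from β-catenin, fell from 217.1 ± 7.94 CPM (SD, n = 3) with 4OHT to 59.1 ± 2.77 with MU and 46.4 ± 5.82 with OE. Wls, the carrier that brings WNT proteins to the surface, fell by 1.67 with MU and 2.05 with OE on the log2 scale (adjusted p = 1.72e-11 and 2.02e-12 from edgeR), and Wnt2 fell by 1.28 and 1.91. Of the R-spondins, Rspo1 rose (1.70 with MU and 1.84 with OE), Rspo2 rose (0.46 and 0.55) and Rspo3 fell by 1.66 and 1.78. With 4OHT, MU and OE, Rspo1 was at 3.18, 10.3 and 11.4 CPM, Rspo2 at 21.7, 29.8 and 31.7 CPM and Rspo3 at 12.2, 3.87 and 3.55 CPM. Rspo4 passed the threshold with OE only (log2 fold change 0.14 with MU and 0.20 with OE), a difference between the constructs of -0.06 that did not pass.

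Among 17 receptor and co-receptor genes, 4 rose and 9 fell with MU, and 4 rose and 8 fell with OE. The largest changes were in Fzd1, which fell by 2.55 with MU and 2.80 with OE, Ror2, a receptor for WNT5A, which fell by 1.78 and 1.97, and Fzd8, which fell by 1.51 and 1.89. Fzd1 was at 51.0 CPM with 4OHT, 8.72 with MU and 7.29 with OE. Of 13 secreted and surface inhibitors tested, 3 rose and 7 fell with each construct. Dkk2, an LRP5/6 antagonist, fell from 174.6 CPM to 24.9 with MU and 19.6 with OE (log2 fold changes -2.81 and -3.16, adjusted p = 3.28e-13 and 8.13e-14 from edgeR). Apcdd1, which is itself induced by WNT in several tissues, fell by 1.86 and 1.92, whereas Kremen2, a receptor for DKK proteins, rose by 2.21 and 2.18 from a low level of 0.557 CPM.

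Inside the cell, of 14 genes of β-catenin and its destruction complex, 4 rose and 6 fell with MU, and 5 rose and 7 fell with OE. The shares over all genes tested were 29.5% and 26.5% with MU, and 29.9% and 27.9% with OE. Ctnnb1, which encodes β-catenin, was at 848.7, 767.7 and 764.4 CPM with 4OHT, MU and OE, a fall by 0.14 with MU and 0.15 with OE on the log2 scale (adjusted p = 0.00836 and 0.0063 from edgeR). This is close to the 0.112 by which scaling by library totals shifted the median of all genes for MU, and Ctnnb1, like Rspo4, was named after its values were seen. Apc2 fell by 1.63 and 1.73, Dvl3, a Dishevelled gene, fell by 0.65 and 0.59, Gsk3b fell by 0.35 and 0.27, and Btrc, which encodes the ligase that marks β-catenin, rose by 0.32 and 0.35. Of 10 nuclear partners, 4 rose and 6 fell with MU, and 4 rose and 4 fell with OE. Tcf7l1, the TCF factor best known as a repressor, fell by 1.02 and 1.07, opposite to Lef1 and Tcf7. Bcl9l, a β-catenin coactivator, fell by 0.71 and 0.69, and Tle2, of the Groucho corepressors, fell by 0.62 and 1.03.

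Among other genes reported as WNT targets more fell than rose. Of 16 tested, 5 rose and 10 fell with MU, and 4 rose and 10 fell with OE, with medians of -0.656 and -0.895. Ccnd1, Cd44 and T, named for the largest changes, all fell. Other genes of the list were higher with the constructs, and those given here were named after their values were seen. With 4OHT, MU and OE, Ascl2 was at 1.67, 3.342 and 3.722 CPM per kb of exon. Bambi was at 1.63, 2.722 and 2.641, and Tnfrsf19 at 0.4671, 1.272 and 1.145. Ccnd1, which encodes cyclin D1, was at 613.1, 626.0 and 601.4 CPM with 4OHT, 93.0, 96.1 and 92.5 CPM with MU and 81.2, 78.5 and 75.6 CPM with OE. Cd44, an adhesion receptor, fell by 2.32 with MU and 2.62 with OE. T, which encodes brachyury, was at 2.27, 2.19 and 2.02 CPM with 4OHT and 0.0911, 0.0608 and 0.0715 CPM with MU (17 to 23 counts). With OE it had 0, 11 and 8 counts, which is at or under the floor of 12 counts per library, so it was at least 18.4-fold lower than with 4OHT. Many of these genes are also induced by growth factors, so their list is not specific to β-catenin.

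Between the constructs, 2.12% of all genes tested were higher and 1.06% lower with MU than with OE. Of 4 R-spondins, 17 receptor and co-receptor genes and 14 genes of the destruction complex list, 0 were called. Among those tested, the pathway genes called were higher with MU than with OE in each case. They made up 2 of 20 ligand and secretion genes, 1 of 13 inhibitors, 1 of 10 nuclear partners and 4 of 16 other targets. They were Wls (log2 fold change 0.38, adjusted p = 0.000863 from edgeR), Wnt5a (0.35, adjusted p = 0.0188), Dkk2 (0.34, adjusted p = 0.00235), Tle2 (0.41, adjusted p = 0.0397), Wisp1 (0.35, adjusted p = 0.00486), Fst (0.31, adjusted p = 0.0361), Cd44 (0.30, adjusted p = 0.00228) and Ccnd1 (0.26, adjusted p = 0.00465). Ccnd1 lies outside the rule for named genes and is given to complete the count. Cell type markers also differed between the constructs. Of 14 fibroblast markers, 11 were higher and 0 lower with MU than with OE (median log2 fold change 0.349). Of 10 macrophage markers, 0 were higher and 8 lower (median -0.96), and of 16 germ cell markers 0 were called. The part of these cell types in the differences between the constructs was not tested. Compared with 4OHT, 13 of the 14 fibroblast markers fell with MU and 13 with OE, with medians of -0.878 and -1.125, and all 14 had counts in every library. The part of fibroblast RNA in the falls of Wnt5a, Wls, Dkk2, Fzd1 and the other pathway genes was not tested. Macrophage markers rose in 10 of 10 with each construct (medians 3.417 and 4.229), and of 16 germ cell genes 10 rose and 5 fell with each, the latter being Zbtb16, Nanos3, Etv5, Gfra1 and Ret, of which Gfra1 and Ret encode the receptor for GDNF.

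**Figure D4:**
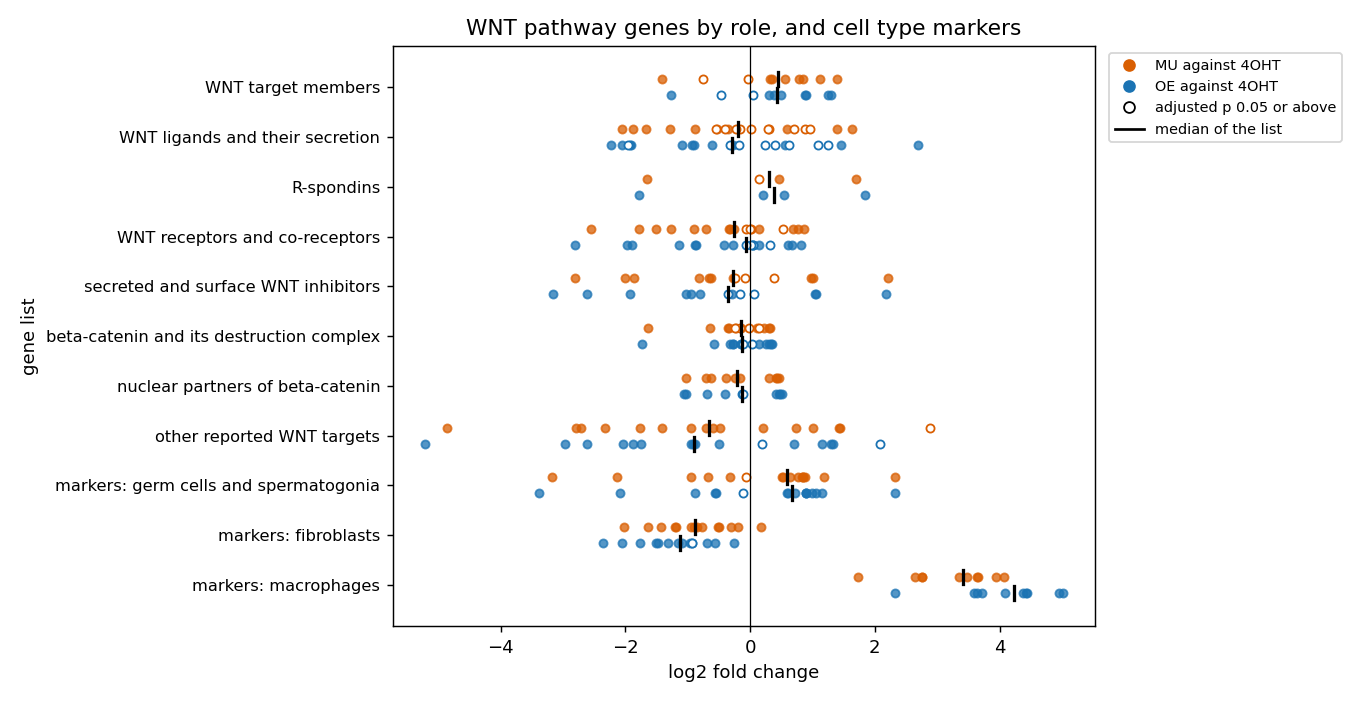
Log2 fold changes against 4OHT of the genes tested in each list of the WNT pathway and of 3 cell type marker lists, with MU and OE in separate rows, filled points for an adjusted p under 0.05 and black lines for the median. The 10 WNT target genes have medians of 0.455 and 0.438, while the medians of ligands, receptors, inhibitors, destruction complex, nuclear partners and other reported targets lie below 0 and those of the 4 R-spondins above it (0.298 and 0.375).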

How the data were processed

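The values deposited by the authors are raw gene counts, in whole numbers, of 9 libraries. Their methods name BBmap and Trimmomatic 0.39 for trimming, HISAT2 2.2.1 for alignment (GRCm38) and StringTie 2.2.1 for quantification. How the counts were made whole, and whether strand was kept, is not given in the sources used here. The members, lists and tests were chosen with earlier results of these data known.

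Counts were tested with edgeR 4.0.16 in R 4.3.3. Low genes were dropped by filterByExpr (at least 10 counts in a library and 15 in total), and TMM set the scaling. All 9 libraries entered a quasi-likelihood model of group alone, with Benjamini-Hochberg adjustment over 22452 genes (threshold 0.05). Standard errors and 95% intervals come from the F statistic. The fit was tested on simulated data in which few genes changed and all genes shared the same dispersion, read for MU against OE only. The simulation did not cover comparisons in which many genes change, as those with 4OHT do. Where a symbol had more than 1 row, the row with the highest total was used. Exon lengths and coordinates are from GENCODE vM21 (GRCm38), and promoter sequences from RefSeq (GRCm38.p6).

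The text names all 10 members and, for each other pathway list and comparison, up to 3 called genes, those with the largest log2 fold change whose mean reached 1 CPM in the libraries compared. Same-numbered libraries of different groups did not deviate together (correlation of deviations from the group means from -0.020 to 0.044), so numbers were not used as pairs. Alternatives were other scalings, DESeq2 1.42.0, no filter, fewer libraries, counts divided by 4, the replicate block, a 1.5-fold threshold and leaving out each library. Intervals and floors cover counting error and the spread between these libraries only.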

Additional observations from a re-analysis of the deposited data

How the results depend on the processing

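With the 7 higher and 1 lower WNT target genes against 4OHT, each kept its direction and stayed past the threshold for MU and for OE under all 17 alternatives that refit the model, including each library left out. Of the 10 genes, 5 passed the threshold with a change of at least 1.5-fold with MU and 5 with OE. Of the 22452 genes tested, 7382 and 7918 did so. Rnf43 with MU passed with counts divided by 4 (-0.824, adjusted p = 0.0427 from edgeR) and without MU replicate 1, and ranged from -1.044 to -0.411 when single libraries were left out (-0.627 to -0.115 for OE), nearest to 0 without 4OHT replicate 3 in both. The sign of Tcf7l2 turned for MU with upper-quartile scaling (0.052), library totals only (0.086) and no filter (0.036), and ranged from -0.091 to 0.042 when single libraries were left out, and for OE from -0.030 to 0.117. Between MU and OE, 0 of the 10 genes were called under any alternative. Axin2 turned positive with library totals only (0.002) and no filter (0.016), as did Tcf7 (0.004 and 0.019), and leaving out single libraries gave Axin2 from -0.071 to 0.016.

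The genes called between MU and OE numbered 712 of all tested. The count was 1565 with only the 6 libraries compared, 1140 with DESeq2 and 241 with a change of at least 1.5-fold. It ranged from 400 to 1099 when a library was left out, the highest without 4OHT replicate 3 and the lowest without MU replicate 2, and moved by over 1.5 times also without MU replicate 1 (432), MU replicate 3 (411) and OE replicate 3 (472). The replicate block gave 674 and changed no call of the 10 genes. Library totals in place of TMM shifted the median of all genes by 0.112 (log2) for MU against 4OHT. The causes were not tested. Depth limits Rnf43 and Notum, with 47 and 104 counts in their lowest libraries.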
